A study of Drosophila melanogaster with 3 samples.

Results

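The regions described here are the peaks of the forkhead transcription factor Jumeau that lay inside introns far from any promoter. A peak of the authors' optimal dm6 list was taken when its summit, the position of highest signal, fell within an annotated gene, in no annotated exon, and more than 2000 bp from the transcription start site (TSS) of every annotated gene. These were 611 of 3845 optimal peaks, or 15.9% (95% Wilson interval 14.8 to 17.1%). The rule used position and no measured value beyond membership of the optimal list. The gene that spans the summit is called the host gene, and it need not be the gene that a bound factor regulates.

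The data are ChIP-seq profiles, that is, sequenced chromatin precipitated with its bound protein, of whole Drosophila melanogaster embryos of the jumu-MiMIC-GFP strain, collected over 0 to 24 hours of development with both sexes mixed. All embryos carried an eGFP exon in an intron of jumu, which yields a Jumeau-eGFP fusion, and an anti-GFP antibody was used to pull it down. There was 1 group of 3 biological replicates, sheared by sonication to 200 to 800 bp, and the control named for the series was not analysed here. The embryos were whole, so signal from different tissues and stages was averaged.

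Jumeau belongs to the winged helix (forkhead) family, whose DNA-binding domain contacts AT-rich words such as TGTTTAC. In the fly embryo it is known for roles in heart and muscle progenitors, the nervous system and chromatin organisation. Drosophila introns, above all long first introns, are known to hold many of the enhancers that drive genes of patterning and signalling, whereas promoter peaks of many factors mark the starts of genes active in all cells.

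Sequences at the summits of 6 of the 7 strongest members are shown first, to show their base composition, and that of babos, a member of signal 737, is left out. Each line is a summit with 50 bp on either side, on the plus strand of the reference assembly, and this stretch is called the window of a member. Capitals mark runs of 6 or more A or T bases.
Tlk (dm6 chrX:3742188-3742288): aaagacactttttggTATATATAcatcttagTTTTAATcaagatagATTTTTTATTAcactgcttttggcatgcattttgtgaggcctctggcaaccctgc
Raf (dm6 chrX:2297678-2297778): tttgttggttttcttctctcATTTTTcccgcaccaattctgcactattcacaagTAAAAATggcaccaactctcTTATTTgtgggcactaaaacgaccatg
CG32486 (dm6 chr3L:3060736-3060836): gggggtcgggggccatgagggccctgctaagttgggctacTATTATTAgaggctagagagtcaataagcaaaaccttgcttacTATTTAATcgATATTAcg
aop (dm6 chr2L:2163623-2163723): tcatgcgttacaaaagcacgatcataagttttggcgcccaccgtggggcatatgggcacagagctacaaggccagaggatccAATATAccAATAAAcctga
fz (dm6 chr3L:14304008-14304108): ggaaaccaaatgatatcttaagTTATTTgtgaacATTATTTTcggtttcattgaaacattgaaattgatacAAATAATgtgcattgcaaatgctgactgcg
Gug (dm6 chr3L:8458269-8458369): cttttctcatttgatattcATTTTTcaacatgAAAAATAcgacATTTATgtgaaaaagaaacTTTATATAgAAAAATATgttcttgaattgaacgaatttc

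Of the members, 92.8% held at least 1 such run in their window, against 84.4% of tiles of the same length over all introns that meet the position rule. The windows held 2.71 runs on average, against 2.12 in tiles. The share was 91.5% in intronic peaks nearer a TSS, 91.6% in far intergenic peaks and 85.6% in promoter peaks. Their windows held 2.63, 2.52 and 2.36 runs on average. The excess over tiles was thus not particular to the members, as other optimal peaks away from promoters had nearly the same share. The Gug window held 5 runs at 22.8% GC, the CG32486 and aop windows 3 and 2 runs at 46.5% and 48.5% GC, so the strongest members ranged from very AT-rich to GC contents above that of most intron DNA.

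The next windows were chosen because they hold the forkhead word TGTTTAC or its reverse complement GTAAACA, in capitals. They are 4 of the strongest such members.
S (dm6 chr2L:1072339-1072439): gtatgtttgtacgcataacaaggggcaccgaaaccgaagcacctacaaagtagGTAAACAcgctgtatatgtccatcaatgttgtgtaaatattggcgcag
simj (dm6 chr3L:10683983-10684083): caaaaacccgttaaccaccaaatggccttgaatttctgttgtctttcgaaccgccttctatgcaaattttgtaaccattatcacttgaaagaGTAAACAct
for (dm6 chr2L:3628903-3629003): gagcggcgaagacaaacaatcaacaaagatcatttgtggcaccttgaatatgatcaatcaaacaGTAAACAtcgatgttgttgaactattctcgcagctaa
CG46458 (dm6 chr3R:6914510-6914610): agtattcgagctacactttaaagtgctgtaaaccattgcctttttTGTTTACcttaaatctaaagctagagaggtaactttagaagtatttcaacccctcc

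Across the 611 members, 25 windows held the word on either strand, or 4.09% (95% Wilson interval 2.79 to 5.97%). Windows of equal length 500 bp upstream of the same summits held it in 1.47% (0.777 to 2.78%). Those 500 bp downstream held it in 2.29%, and tiles of eligible intron in 2.02%. No interval was computed downstream, so intervals can be compared on the upstream side alone. In the 3 replicates, taking the strongest 3845 peaks of each list, the share among members was 4.28% ± 0.788 (SD, n = 3). Member windows were AT-richer than tiles, and word shares were not adjusted for base composition. The word was about as frequent in promoter peaks, at 3.80%, and in intronic peaks 500 to 2000 bp from a TSS, at 3.44%. It stood at 1.91% in far intergenic peaks. Most members had no copy of it in the window, which says only that these letters are not in that stretch.

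Signal at the members was moderate. Their median was 174.0 (quartiles 133 to 256.3, range 112 to 1411), against 182.1 (139 to 279, range 112 to 3722) in the 3234 other optimal peaks. Signal is the authors' own value per peak from their caller, and the optimal list ends at a signal of 112. Of the members, 376 had a signal below 200 and 24 had a signal above 500. None of the 20 strongest optimal peaks was a member, 3 of the strongest 100 were, and 13 of the strongest 200.

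**Figure D1:**
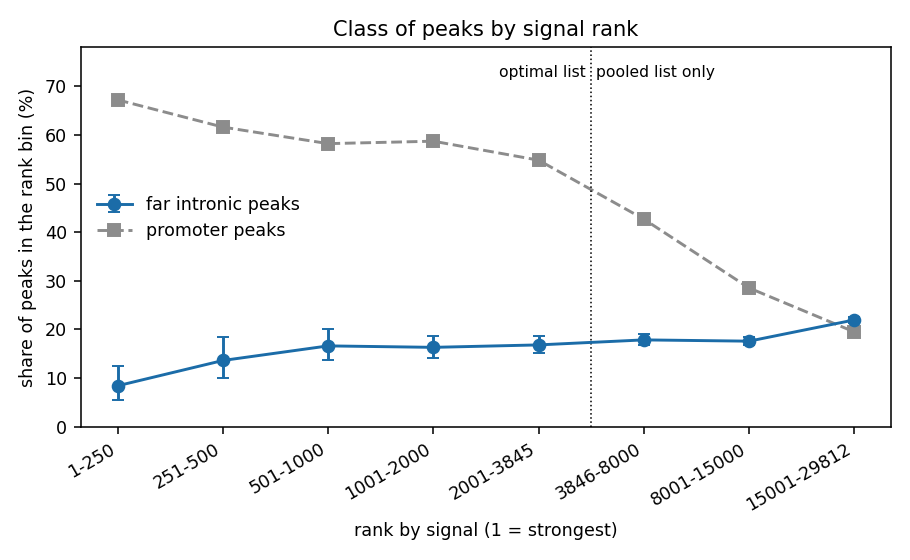
Share of peaks (%) that were far intronic (blue, with 95% Wilson intervals) or promoter peaks (grey) in bins of signal rank, over the optimal list (left of the dotted line) and the weaker peaks of the pooled list (right). The far intronic share is lowest in the strongest 250 peaks, at 8.40%, and highest in the weakest bin, at 21.9%.

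The share of far intronic peaks was lowest at the top of the ranking. It was 8.40% in the strongest 250 peaks (5.56 to 12.5%), 13.6% in the next 250, and 16.3 to 16.8% in the weaker bins of the optimal list. Beyond the optimal list, 5221 of the 25967 weaker pooled peaks met the position rule, or 20.1%. Promoter peaks ran the other way, at 67.2% of the strongest 250 and 54.8% of the weakest 1845 optimal peaks.

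In each replicate the members' median signal was slightly below that of the other matched optimal peaks. In replicate 1 the medians were 72.3 in members and 75.4 in the others, in replicate 2 54.1 and 59.0, and in replicate 3 50.6 and 55.3. The log2 ratio was -0.06, -0.12 and -0.13, a mean of -0.10 ± 0.038 (SD, n = 3). All 3 replicates were on the same side, and the two-sided exact sign-flip test over replicates gave p = 0.25, the smallest it can give with 3 values.

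Most members recurred in every replicate. A replicate summit within 100 bp was found for 98.5% of members in replicate 1, 95.4% in replicate 2 and 96.7% in replicate 3. All 3 replicates had it for 557 of 611 members (91.2%, 88.6 to 93.2%), against 88.2% (87.1 to 89.3%) of the other optimal peaks and 88.7% of all optimal peaks. The excess of members over the others, 2.91 percentage points, was 1.27 with a match within 200 bp. Since optimal peaks were selected for agreement between replicates, a high share was built in. No member was missing from every replicate, and 3 members, in kibra, CG1677 and Pdp1 (named after their values were seen), were matched in 1 replicate alone. Relative signal, as used below, is a peak's signal in a replicate over the median of all optimal peaks matched there. Over the 557 members found in all 3, its coefficient of variation had a median of 16.5% (10.7 to 25.7%), against 19.2% (11.6 to 29.96%) in the others. It was 9.76% in the strongest 100 members and 22.3% in those of the weakest 100 that were found in all replicates, so single weak members are less well measured.

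**Figure D2:**
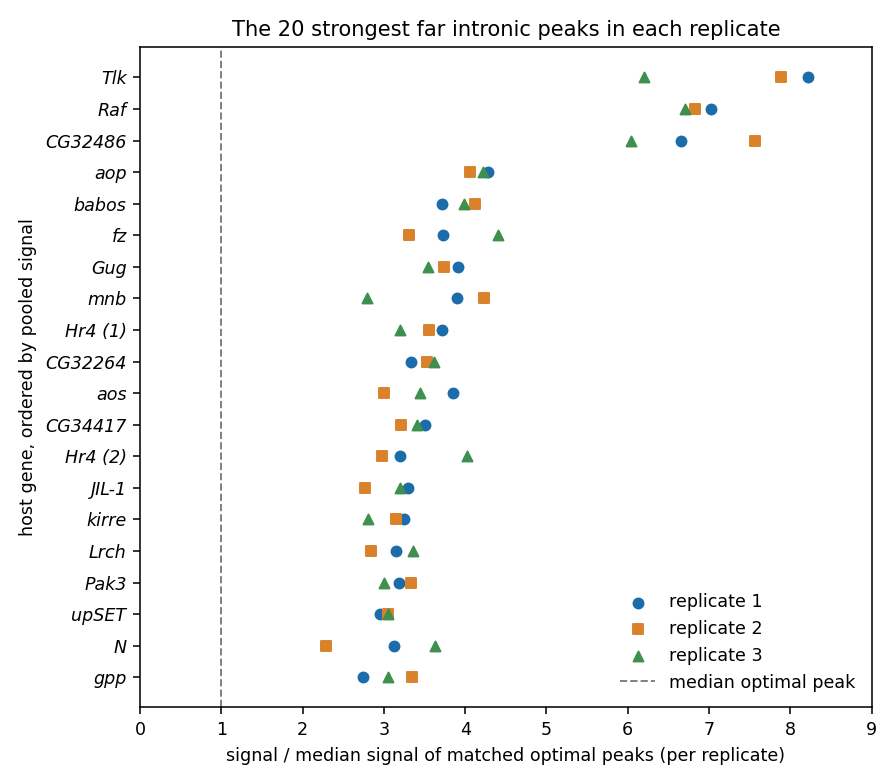
Relative signal (x axis, signal divided by the median of the matched optimal peaks of the same replicate) of the 20 strongest members, 1 symbol per replicate, with host genes down the page in order of pooled signal. All points lie to the right of the median optimal peak (dashed line at 1), and Tlk, Raf and CG32486 stand above the rest at 6.04 to 8.22.

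The strongest member lay in Tlk, which encodes the Tousled-like kinase of chromatin assembly (chrX:3742036-3742403, signal 1411, 2341 bp from the nearest TSS, its own, in a first intron). Its relative signal was 8.22, 7.89 and 6.20 in replicates 1, 2 and 3. The member in Raf, the kinase that links Ras to the MAP kinase cascade, reached 7.02, 6.83 and 6.70 (chrX:2297551-2297879, signal 1288). The member in CG32486 reached 6.66, 7.56 and 6.04 (chr3L:3060625-3060948, signal 1272). These were the only members above 5 in all replicates, and their ranges lay above that of the next member. That member, in aop, stood at 4.28, 4.06 and 4.22 (chr2L:2163537-2163799). The aop gene encodes Yan, an ETS repressor that MAP kinase signalling removes.

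Of the 20 strongest, 5 lay in genes of the developmental signalling list, namely Raf, aop, aos, N and fz, against 54 of all 611 members. That list was chosen with earlier results of these data known. The member in aos, which encodes a secreted inhibitor of the EGF receptor, had relative signals of 3.85, 3.00 and 3.44. The member in N, the Notch receptor, had 3.12, 2.29 and 3.63 and lay 10624 bp from the nearest TSS. The member in fz, the Frizzled receptor of Wnt signalling and planar polarity, had 3.73, 3.31 and 4.41 and lay 22193 bp from any TSS, the farthest of the 20. The relative signals of aos, N and fz overlapped in range. Pak3, outside that list, encodes a p21-activated kinase of the cytoskeleton, and its member had 3.18, 3.34 and 3.00.

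Of the 20 strongest, 1 lay in a gene of the list of Polycomb, trithorax and heterochromatin genes, JIL-1, against 15 of all 611 members. Gug, gpp and upSET, described next, are outside that list. The member in Gug, which encodes the corepressor Atrophin, had relative signals of 3.91, 3.73 and 3.54. JIL-1, a histone kinase of open chromatin, had a member at 3.30, 2.76 and 3.20, and gpp, the fly Dot1 histone methyltransferase, a member at 2.74, 3.34 and 3.05. upSET, a SET domain protein, had a member at 2.95, 3.05 and 3.05. Among the remaining hosts of the 20 were mnb, the minibrain kinase, at 3.90, 4.23 and 2.79, and Hr4, a nuclear receptor of the ecdysone response, with 2 members at 3.71, 3.55 and 3.19 and at 3.19, 2.98 and 4.02. The other hosts were babos, CG32264, CG34417, kirre and Lrch. First introns of a host transcript held 15 of the 20.

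Jumeau's own gene held 1 member, and the related forkhead gene CHES-1-like held 4. The jumu member lay in the first intron, 6905 bp from the nearest TSS (chr3R:10356877-10357296, signal 298), with relative signals of 1.96, 1.15 and 1.53. The embryos carry the eGFP exon in an intron of jumu, and its position relative to this peak was not analysed. The strongest of the CHES-1-like members had 1.77, 2.00 and 1.68 (chrX:7700325-7700512, signal 338), and the weakest had 0.84 and 0.55 in replicates 1 and 2 and no match in replicate 3. All 4 lay in first introns, 2036 to 3688 bp from the nearest TSS, which was that of CHES-1-like in each case. The windows at the jumu member and the strongest CHES-1-like member follow, with runs of 6 or more A or T in capitals.
jumu (dm6 chr3R:10357037-10357137): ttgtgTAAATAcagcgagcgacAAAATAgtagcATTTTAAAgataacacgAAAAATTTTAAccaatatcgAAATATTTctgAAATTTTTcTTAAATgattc
CHES-1-like (dm6 chrX:7700342-7700442): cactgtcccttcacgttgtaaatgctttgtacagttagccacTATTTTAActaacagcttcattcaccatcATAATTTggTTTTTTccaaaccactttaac

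The jumu window held 7 such runs at 25.7% GC, and the CHES-1-like window 3 at 35.6%. Neither window held TGTTTAC or GTAAACA.

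Eligible DNA, meaning exon-free gene interior more than 2000 bp from any TSS, covered 41.4 Mb, or 30.9% of the 6 arms. Members lay there at 14.8 per Mb (95% Poisson interval 13.6 to 16.0), against 35.0 other optimal peaks per Mb of the remaining DNA. The ratio was 0.422, and 0.403 ± 0.028 over the replicates' own lists (SD, n = 3). Intergenic DNA also over 2000 bp from any TSS held 9.01 optimal peaks per Mb (7.95 to 10.2). Members were denser by a ratio of 1.64, and 1.66 ± 0.150 over replicates (1.50 to 1.80). Distances beyond 2000 bp were not matched between intron and intergenic DNA. Far introns were thus poorer in peaks than the rest of the arms, which includes promoters, and richer than far intergenic DNA in every replicate. Within 50 kb stretches that hold a pooled peak, the ratio to far intergenic DNA was 1.36.

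**Figure D3:**
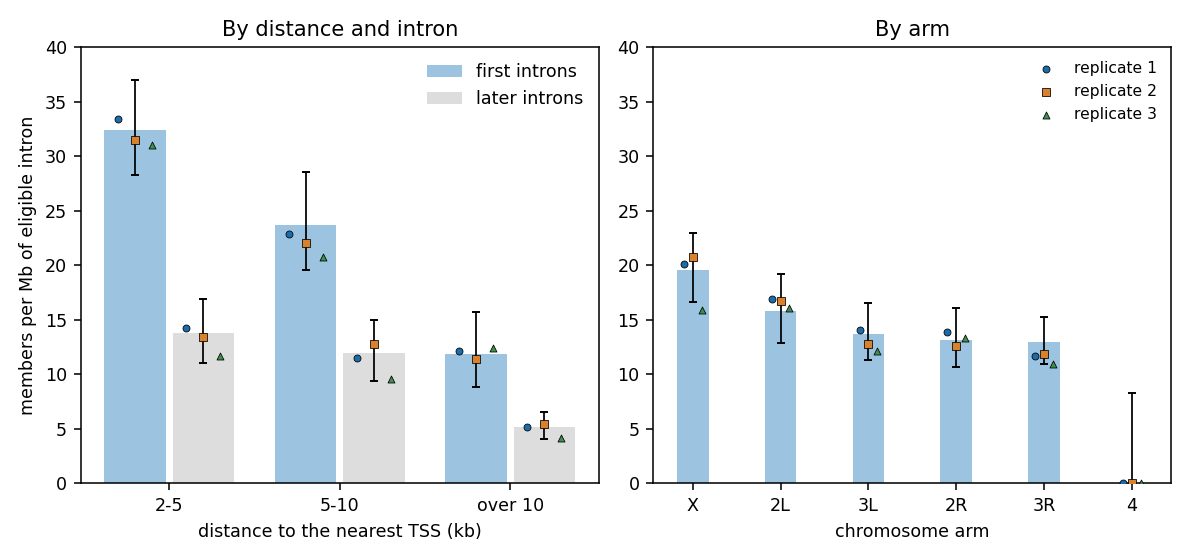
Members per Mb of eligible intron (bars, with 95% Poisson intervals; symbols, the same density in each replicate's strongest 3845 peaks), by distance to the nearest TSS for first (blue) and later (grey) introns, and by chromosome arm. First introns are denser than later ones in each distance bin in all 3 replicates, and the X has the tallest bar at 19.6 per Mb.

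Even beyond 2000 bp, density fell with distance from the nearest TSS. It was 25.3 per Mb at 2 to 3 kb, 22.0 at 3 to 5 kb, 17.0 at 5 to 10 kb, 9.69 at 10 to 20 kb and 3.93 beyond 20 kb. Over replicates the nearest bin had 25.6 ± 0.471 and the farthest 3.62 ± 0.353 (SD, n = 3), and the replicate ranges of these bins did not overlap. Beyond 20 kb only 4.43 of 8.65 Mb lay in stretches with any pooled peak, and there the density was 7.67. The share of pooled peaks that reached the optimal list was 12.9% (11.0 to 15.05%) in the nearest bin and 7.54% (5.44 to 10.35%) in the farthest. The median member lay 4983 bp from a TSS, 117 lay beyond 10 kb and 34 beyond 20 kb.

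First introns held 379 of 611 members (62.0%, 58.1 to 65.8%), although they made up 37.6% of eligible DNA. Their density was 24.4 per Mb, against 8.98 in later introns, and 23.6 ± 0.850 against 8.51 ± 1.01 over replicates (SD, n = 3). First introns lie nearer to TSSs, so the comparison was repeated within distance bins. At 2 to 5 kb the densities were 32.4 in first and 13.8 in later introns, at 5 to 10 kb 23.7 and 11.97, and beyond 10 kb 11.9 and 5.19. First introns were denser in each bin and each replicate.

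On the X, density was 19.6 per Mb (16.7 to 22.9), against 13.01 to 15.8 on the large autosome arms. In replicates it was 20.1, 20.7 and 15.9, a mean of 18.9 ± 2.65 (SD, n = 3). Replicate 3 lay below replicates 1 and 2 and below its own value on 2L, which was 16.1. Members made up 20.7% of optimal peaks on the X and 13.6 to 15.6% on the large autosome arms, while other optimal peaks stood at 38.8 per Mb on the X and at 31.5 to 37.7 on those arms. Chromosome 4 held no member in 0.445 Mb of eligible intron. The limit that a count of 0 allows there, taken as 3 counts, is 6.74 per Mb, and the 95% Poisson upper limit is 8.28. Both lie below the density of each other arm. The chromosome had 9 pooled peaks in such introns and 14 optimal peaks elsewhere. Those 14 stood at 15.5 per Mb, which was also below the density of other optimal peaks on each other arm. Whether far introns of chromosome 4 lacked members beyond this general scarcity of peaks was not tested.

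The 611 members fell in 379 host genes, of which 370 encode proteins. A single member was found in 249 hosts, 4 or more in 26, and 2 or 3 members in the others, and hosts with several held 59.2% of members. Members in 1 gene share their host and are not independent of each other. Host genes were long, with a median span over members of 39824 bp. Of 4216 protein-coding genes with any eligible intron, 382 (9.06%) spanned a member, a count that includes genes sharing a member. For genes with over 50 kb of eligible intron it was 61 of 161 (37.9%).

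The kirre gene held most members, at 8. Its product is an immunoglobulin-domain adhesion protein of muscle founder cells, and the members spread over 310491 bp of the gene, none of them in a first intron. In 1 of the 8 the summit also lay in the overlapping gene CG32795. The strongest had relative signals of 3.24, 3.14 and 2.80 (chrX:3097082-3097344), and the others had pooled signals from 120 up. Raf held 7 members within 20825 bp, all found in every replicate, at 28.6 per 100 kb of eligible intron, against 2.78 in kirre. In the replicates' own lists Raf held 7, 8 and 7. The transcription cofactor gene ush, a partner of GATA factors in heart and blood, held 7 members, all in first introns, with signals of 122 to 345. The strongest optimal peak of the whole list, at 3722, also lies in an intron of ush, nearer than 2000 bp to a TSS and therefore outside the rule.

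The remaining hosts of the 12 with most members were of several kinds. The tara gene, for a coregulator of the trithorax group, held 7 members within 18682 bp, and the nuclear corepressor gene sbb held 7. The ecdysone-response genes Hr4 and Eip75B, both for nuclear receptors, held 6 and 5, and apt, for a regulator of tracheal and head development, held 5. The integrin gene mew held 4, and rdx, for a ubiquitin ligase adaptor of Hedgehog signalling, held 4 at 9.0 to 16.9 kb from the nearest TSS. lncRNA:CR44357 spanned 7 and CG1677 spanned 5, and as these genes overlap, the 5 members of CG1677 are among the 7. Own promoter peaks, within 500 bp of a TSS, were present at tara, sbb, Eip75B, apt, CG1677 and rdx and absent at kirre, Raf, ush, lncRNA:CR44357, Hr4 and mew.

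Hosts often carried a promoter peak of their own. It was present at 143 of 382 protein-coding hosts (37.4%, 32.7 to 42.4%), against 952 of 3834 other genes with eligible intron (24.8%, 23.5 to 26.2%). Hosts had a median of 18.7 kb of eligible intron and the other genes 1.17 kb, and the number of TSSs per gene was not matched. The host share with all biotypes was 37.2%, but it was 23.4% when the strongest 1922 optimal peaks alone were used for both kinds of peak. The share in other genes was not analysed at that setting. Among genes with over 50 kb of eligible intron, 37.7% of hosts (26.6 to 50.3%) and 11.0% of other genes (6.25 to 18.6%) had a promoter peak. In genes with under 5 kb the values were 31.4% (20.3 to 45.0%) and 27.4% (25.7 to 29.1%), which overlap. The nearest TSS belonged to a host for 415 of 611 members (67.9%). Another optimal summit lay within 2 kb of 21.9% of members, against 30.1% of the other peaks. The position rule keeps members away from promoter peaks, which lie within 500 bp of a TSS, so a lower share was partly built in.

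**Figure D4:**
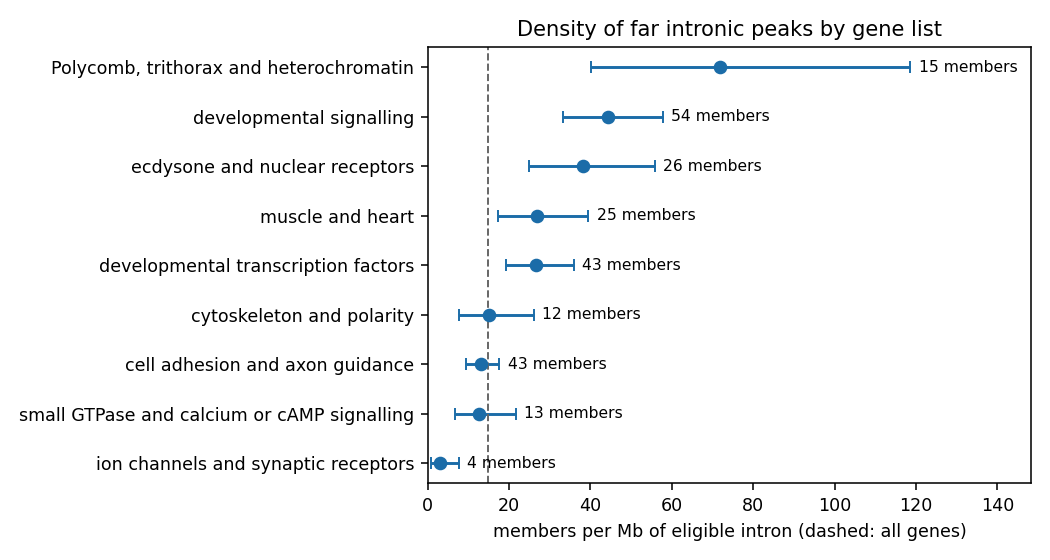
Members per Mb of eligible intron in the genes of 9 lists (points, with 95% Poisson intervals and the number of members), ordered by density. The dashed line is the density in all genes, 14.8 per Mb. The chromatin, signalling and ecdysone lists lie above the line with their whole intervals, as do muscle and heart and developmental transcription factors. The interval of ion channels lies below it, and the remaining intervals cross it.

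The 10 functional gene lists, chosen with earlier results of these data known, are described by member density in their eligible introns. Distance to a TSS and the share of first introns were not matched between lists, and their part in the differences was not tested. The median member lay 4.36 kb from a TSS in the Polycomb, trithorax and heterochromatin list and 9.57 kb in the ion channel list. Developmental signalling genes had 54 members in 29 of the 80 listed genes with eligible intron, at 44.4 per Mb (33.3 to 57.9), against 14.8 in all genes, and 44.9 ± 4.53 over replicates (SD, n = 3). Beyond Raf, aop, fz, N and aos the hosts included Egfr and its ligand gene vn, the FGF gene bnl, the Wnt genes wg and Wnt4 with the receptor gene fz2, the BMP gene dpp with its receptor gene tkv, the Notch coactivator gene mam, and the insulin receptor gene InR. The share of pooled peaks that were optimal was 16.1% in this list (12.6 to 20.4%), against 10.5% in all eligible intron. Members overlap between lists where a gene is in several.

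Ecdysone and nuclear receptor genes had 26 members in 10 of 27 genes, at 38.2 per Mb (24.9 to 55.9). The hosts were EcR, the ecdysone receptor, Eip75B, Eip78C, Hr3, Hr4 and ftz-f1, which encode nuclear receptors, and Eip63E, E23, tai and pigs. Polycomb, trithorax and heterochromatin genes had 15 members in 9 of 43 genes and 0.209 Mb of eligible intron, at 71.9 per Mb (40.3 to 119), and 67.1 ± 8.31 over replicates (SD, n = 3). Its hosts were the Polycomb group genes ph-p and Psc, the zinc finger gene jing, the activator gene trx, JIL-1, the remodeller gene Mi-2, the demethylase genes Kdm4B and Kdm2, and jumu itself. The second strongest member of that list, with relative signals of 2.64, 2.27 and 2.49, lay in Mi-2 where it overlaps Su(Tpl). The forkhead family list had the 5 members of jumu and CHES-1-like in 2 of 8 genes with 0.0464 Mb, at 108 per Mb (35.0 to 252).

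Developmental transcription factor genes had 43 members in 20 of 84 genes, at 26.6 per Mb (19.3 to 35.9). Hosts included the Hox genes Antp and Abd-B, the homeodomain gene hth, the muscle regulator gene Mef2, the mesoderm gene twi and the tendon cell gene sr. The sr member was the strongest of this list, at relative signals of 2.05, 2.11 and 1.55, followed by the ush member at 2.00, 1.47 and 2.09. Muscle and heart genes had 25 members in 10 of 50 genes, at 26.8 per Mb (17.3 to 39.5), and 8 of the 25 were those of kirre. The strongest after kirre lay in mew, at 2.32, 2.30 and 2.06.

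Of the lists, ion channel genes stood lowest. Ion channel and synaptic receptor genes had 4 members in 4 of 66 genes, at 3.02 per Mb (0.822 to 7.72), and 2.26 ± 0.754 over replicates (SD, n = 3). The strongest lay in Ih, a hyperpolarisation-gated channel gene, with relative signals of 1.52, 1.64 and 1.49, and the 4 hosts were Ih, Elk, NaCP60E and Ca-alpha1T. The share of pooled peaks that were optimal was 3.85% (1.51 to 9.47%). Adhesion and axon guidance genes had 43 members in 19 of 87 genes, at 13.1 per Mb (9.47 to 17.6), near the value of all genes. Cytoskeleton and polarity genes had 12 members in 8 of 49 genes (7.75 to 26.2 per Mb), led by cno and scrib, and genes of small GTPases and calcium or cAMP signalling at 12.7 (6.75 to 21.7), led by for and RapGAP1. All 10 lists together covered 212 of the 611 members.

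Some of the genes with most eligible intron held no member, though they held members more often than genes in general. Of the 50 protein-coding genes with most eligible intron in stretches that hold a pooled peak, 83.8 to 520.3 kb each, 23 held at least 1 member. Among all 4216 protein-coding genes with any eligible intron, 382 (9.06%) did. The 3 with most such intron and no member, named after their values were seen, were Myo81F beside the centromere of 3R, and bru3 and Rbp6, which encode RNA-binding proteins. The next was pum, whose product is a translational repressor of the early embryo, with no member.

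The members farthest from any TSS were in hth, a homeodomain gene, at 49804 and 47665 bp. Their relative signals were 0.79, 0.60 and 1.00, and 0.68, 0.66 and 0.67. The next lay in mamo, a zinc finger gene, at 42355 bp with 0.71, 1.14 and 0.87, and in kirre at 36625 bp with 0.71, 0.99 and 0.87. A member in Snoo, for a Sno-type regulator of Dpp and activin signalling, lay at 34869 bp and was strong, at 2.24, 2.24 and 2.92. Of these 5, that in Snoo alone stood above the median optimal peak in every replicate.

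**Figure D5:**
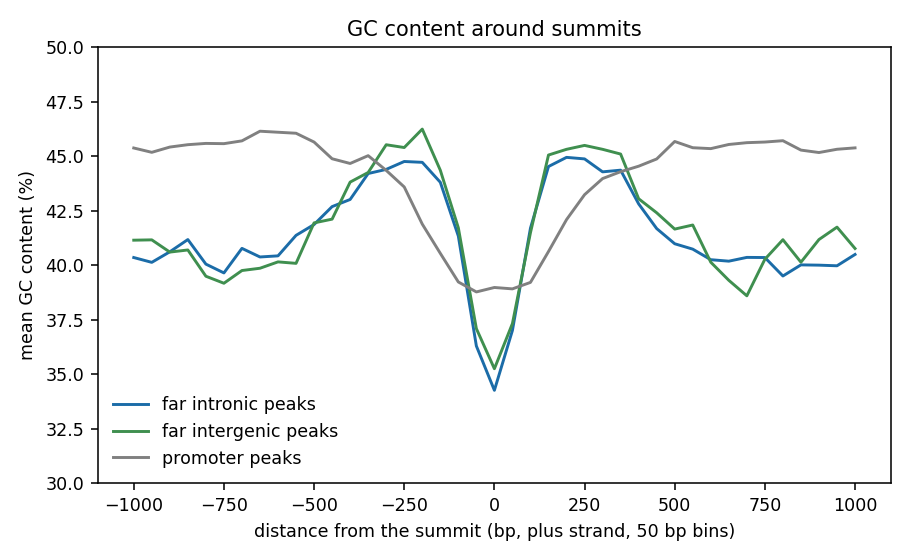
Mean GC content (%) in 50 bp bins by distance from the summit, for the 611 far intronic peaks (blue), 262 far intergenic peaks (green) and 2211 promoter peaks (grey); the y axis starts at 30%. The far intronic profile has a narrow trough of 34.3% at the summit between shoulders of 44.7% and 45.0%, and promoter peaks a shallower, wider one.

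Summits of the members were AT-rich within GC-richer surroundings. Median GC content in the window was 33.7% (quartiles 29.7 to 39.6%), against 41.6% at 500 bp upstream, 40.6% at 500 bp downstream and 40.6% in intron tiles. The difference from the other optimal peaks was -2.97 percentage points. In the replicates' own lists it was 35.0% ± 0.572 at summits and 41.6% in each at the upstream flank (SD, n = 3). The summit was lower than its own flank in 434 of 611 members (71.0%), by a median of 7.92 percentage points. In the mean profile, GC was 34.3% at the summit, 44.7% and 45.0% at 200 bp on either side, and 40.4% and 40.5% at 1000 bp.

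Far intergenic peaks had a similar profile, with a mean of 35.3% at the summit and 46.2% and 45.3% at 200 bp on either side. Intronic peaks nearer than 2000 bp to a TSS had a summit median of 34.7%, and promoter peaks of 38.6%. The strongest 153 and the weakest 152 members had summit medians of 33.7% and 34.2%. Base composition can affect amplification and sequencing, and without the control its part in these values was not tested. No member had a median of more than 1 copy on the arms for the 25-base words of its window, against 7 of 3234 other optimal peaks, and the 95% Wilson upper limit for 0 of 611 is 0.625%. At least 50% of the window was soft-masked in the reference, as repeats are, in 21 members (3.44%), against 4.58% of the other optimal peaks.

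Of the other consensus words, GACGC was rarer at the members than at their flanks, and so were GAGAGAG and CAGCTG, given below. The alternative forkhead word GACGC was in 3.27% of members (2.13 to 5.002%) and in 8.51% of upstream flanks (6.55 to 11.0%). It was in 6.93% of tiles, 7.60% of promoter peaks, 7.69% of intronic peaks nearer a TSS and 5.73% of far intergenic peaks. Over replicates, its share in members was 3.85% ± 1.41. Member windows were AT-richer than flanks and tiles, and word shares were not adjusted for base composition. The forkhead word TGTTTAT was in 5.89% (4.29 to 8.05%), against 4.26% of flanks (2.92 to 6.16%) and 3.87% of tiles, and the intervals overlapped. The promoter words were rarer than at start sites. The DRE word TATCGATA was in 0.164% of members (0.0289 to 0.921%), against 5.20% of promoter peaks and 0.216% of tiles. The shorter word TCGATA, which lies within it, was in 4.75% (3.33 to 6.73%), against 15.9% of promoter peaks and 3.46% of tiles, and motif 1, GGTCACACT, in 0.327% (0.0898 to 1.19%), against 2.08% of promoter peaks, 0.0462% of tiles and none of the flanks. For motif 1 the members thus stood below promoter peaks and above tiles, on 2 members that held it.

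The remaining 8 words gave no clear excess at the members. GAGAGAG was in 1.15% (0.556 to 2.35%), against 3.93% of upstream flanks (2.65 to 5.78%) and 1.33% of tiles. CAGCTG was in 2.29% (1.37 to 3.81%), against 5.56% of upstream flanks (4.01 to 7.68%) and 3.57% of tiles. Both were thus rarer than at upstream flanks, as GACGC was, while their intervals held their shares in tiles. CACACAC stood at 3.44%, TAATTA at 6.06%, AGATAAG at 1.80%, AAGGTCA at 1.31%, CAGGTAG at 0.982% and TGAGTCA at 0.982%, each with an interval that held its share in tiles, except that the CAGGTAG interval began at 0.451%, just above its tile share of 0.430%. A word is a description of these letters and not a site, and 14 words were searched on both strands.

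Members just inside the distance limit lay in NFAT, RhoGAP18B, grh, fru and hiw, 2002 to 2023 bp from a TSS with signals from 136 to 387. The nearest intronic peaks outside it, at 1981 to 1999 bp, lay in lncRNA:CR44320, RhoU, Kdm2, shot and CG1677 with signals from 113 to 298. Of the members, 15 had an interval that reached into an exon although the summit did not.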

How the data were processed

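ChIP-seq of Jumeau-eGFP was analysed in 3 biological replicates of 1 group. Per the deposited readme, a permissive list of peaks and background was made for each replicate and for their pool, and the optimal list was thresholded by the irreproducible discovery rate. The signal of a peak is the authors' deposited value, and it was compared within a list or relative to a median of its list. Each replicate list held 30000 peaks and the pooled list 29812, and all 3845 optimal peaks were in the pool. The peak caller, its version and the threshold are not given in these sources, and the read depth is unknown. The control and the dm3 lists were not used here.

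Coordinates are 1-based in dm6, and 1 further summit sequence is not reported here. Genes came from Ensembl release 115 (BDGP6.54) without transposable elements, with 18164 genes and 23581 TSS positions on 6 arms, and sequence from the RefSeq assembly of the same build. Summits are interval start plus offset, and 1 optimal summit lay outside its interval. Replicate peaks were matched by summits within 100 bp. For densities by replicate, the strongest 3845 peaks of each replicate were classed by the same rule. Wilson and Poisson intervals (95%) cover counting error only and treat peaks as independent. The only test was a two-sided exact sign-flip permutation test over replicates. Scripts used Python 3.11.15, numpy 2.4.6, pandas 2.3.3 and scipy 1.17.1, and were tested on simulated data.

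The members, the gene lists and the words were chosen with earlier results of these data known. Named were the 20 strongest members, up to 12 host genes with 4 or more members, the 2 strongest members per list, the 5 farthest from a TSS, and all members in jumu or CHES-1-like. Of 643 listed symbols, 26 had no match and were not analysed here. Alternatives changed the TSS distance, the TSS set, exon overlap, the list, the window, the flank and the matching distance, or left out 1 replicate.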

Additional observations from a re-analysis of the deposited data

How the results depend on the processing

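No paired analysis was possible because the study has 1 group, and no comparison between groups could carry the replicate as a block. None of the 98 alternative values reversed its direction, which only signed differences and density ratios could do, as shares have none. A total of 74 moved by less than the spread between replicates or stayed inside the interval. For the relative signal log2 ratio, keeping its sign was enough to be counted among these. The TGTTTAC share in members could not change with the downstream flank, which does not enter it. Leaving out 1 replicate could not move the mean share in replicate lists by a full SD. That share with the strongest 1922 peaks was also counted again under another setting, so the counts overstate how much was tried. With a TSS distance over 1000 bp, the share of optimal peaks in the class was 22.6%, the share in replicate lists 21.8%, the density ratio to the remaining DNA 0.515, the log2 ratio of median signal -0.027, the first-intron share 67.7% and the GC difference from other optimal peaks -3.96 percentage points, against -2.97 as reported. With a distance over 5000 bp these were 7.93%, 7.51%, 0.322, -0.11, 52.8% and -1.98 points, and the distance itself sets the shares. With protein-coding TSSs alone, the shares were 17.1% and 16.5% and the GC difference -3.96 points. With the strongest 1922 optimal peaks, the ratio to far intergenic DNA was 2.06, the share in replicate lists 14.3%, the first-intron share 65.6%, the host promoter share 23.4% and the GC difference -1.98 points. That setting counts fewer promoter peaks by construction. A window of 100 bp on either side of the summit gave a GC difference of -1.49 points and TGTTTAC in 6.55% of members, against 3.44% of flanks. Matching within 50 or 200 bp gave an excess of members found in all replicates of 2.12 or 1.27 points, against 2.91 as reported. The ratio to far intergenic DNA in 50 kb stretches that hold a pooled peak, 1.36, was chosen after seeing the data.

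Leaving out each replicate in turn, by asking for a match in the other 2, gave a class share of 16.2% each time, a share in replicate lists of 14.9 to 15.8%, density ratios of 0.432 each time and of 1.61 to 1.65, and first-intron shares of 61.6 to 62.1%. The host promoter share was 34.9 to 35.8%, the excess of members found in all lists 2.10 to 2.19 points, the relative signal log2 ratio -0.13 to -0.09, the median signal ratio -0.08 to -0.07 and the TGTTTAC share 3.99 to 4.29%. The pooled list itself still holds all 3 replicates in each case. Precision is limited by 3 replicates, by an unknown read depth and by a threshold on pooled signal, and pooled peaks beyond it are weaker, not absent.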
